A study of Mus musculus with 6 samples.

Results

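The expression of 37 genes that type I interferon induces was examined in the hearts of 3 mice infused with angiotensin II (Ang II) and of 3 mice infused with Ang II and treated with tectochrysin (Tec), a plant flavonoid. The members were chosen by gene name, with earlier results of these data known, and all 37 names were found among the 30914 genes of the deposited table. Shares of members set beside shares of all tested genes are therefore descriptions. All 6 animals were wild-type male C57BL/6J mice, 8 weeks old, and all received Ang II at 1 μg/kg/min from an osmotic pump for 4 weeks. The Ang II + Tec group also received Tec at 5 mg/kg by intraperitoneal injection during the last 2 weeks. No vehicle injection is named for the Ang II group, and none of the 6 libraries comes from a mouse without Ang II. The values therefore compare hearts with and without Tec under Ang II and hold no level from an untreated heart. Poly(A) RNA of the heart was sequenced in pairs of reads, and each gene has 1 FPKM value per library (fragments scaled to the length of the transcript and to the mapped fragments of the library), a unit that allows levels of different genes to be set side by side. The libraries were made to look for the mechanism by which Tec acts on the hypertrophic heart, and the study's protein work turned to STING, an adaptor of cytosolic DNA sensing.

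Type I interferons are secreted when a cell senses foreign or misplaced nucleic acid. They bind the receptor made of IFNAR1 and IFNAR2, whose kinases JAK1 and TYK2 activate the transcription factor complex ISGF3. ISGF3 binds the interferon-stimulated response element in the promoters of its target genes, which encode transcription factors that extend the response, sensors of viral RNA and DNA, proteins that block viral entry, translation and budding, and feedback inhibitors. STING, once activated by cyclic dinucleotides, recruits TBK1 and IRF3 and can start the same response, and IRF3 can also switch on some of these genes directly. In the heart, macrophages, endothelial cells, fibroblasts and cardiomyocytes can all carry out this programme.

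The promoters of the 4 members with the lowest log2 fold change among those that hold the core letters of the interferon-stimulated response element are shown to let the element be seen beside the values. Each runs 5′ to 3′ on the gene's strand from 170 bases before the RefSeq start to 30 bases after it, in build GRCm38.p6, and the capitals mark the letters GAAANNGAA or, where the element lies on the opposite strand, their reverse complement. The stretch of Isg15 is chr4:156200789-156200988 (minus strand), that of Oas1a is chr5:120907496-120907695 (minus strand), that of Ifit3 is chr19:34583359-34583558 (plus strand) and that of Ifitm3 is chr7:141010715-141010914 (minus strand).
Isg15: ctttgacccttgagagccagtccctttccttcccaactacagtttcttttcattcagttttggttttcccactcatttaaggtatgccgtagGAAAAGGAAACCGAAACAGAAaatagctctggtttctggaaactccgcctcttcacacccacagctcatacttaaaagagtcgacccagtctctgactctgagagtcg
Oas1a: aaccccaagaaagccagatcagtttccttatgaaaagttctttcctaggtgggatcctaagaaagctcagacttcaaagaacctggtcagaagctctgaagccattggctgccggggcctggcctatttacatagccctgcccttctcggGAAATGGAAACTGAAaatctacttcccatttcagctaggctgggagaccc
Ifit3: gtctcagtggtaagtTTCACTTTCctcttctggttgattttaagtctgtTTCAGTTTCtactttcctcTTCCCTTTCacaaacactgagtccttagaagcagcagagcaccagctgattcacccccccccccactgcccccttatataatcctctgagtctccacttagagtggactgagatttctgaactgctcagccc
Ifitm3: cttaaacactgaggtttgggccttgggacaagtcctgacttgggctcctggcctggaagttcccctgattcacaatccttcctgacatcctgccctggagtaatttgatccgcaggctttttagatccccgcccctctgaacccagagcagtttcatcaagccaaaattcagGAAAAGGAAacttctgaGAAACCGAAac
In Isg15, 3 overlapping copies of the element begin 78, 72 and 66 bases before the start, and they read as a single run of capitals. Oas1a holds 2 overlapping copies close to its start, Ifit3 holds 3 separate copies on the opposite strand, and the 2 copies of Ifitm3 lie just after its start.

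A RefSeq window from 250 bases before to 50 bases after the start was on hand for 28 of the 37 members. The letters GAAANNGAA were found on either strand in 15 of the 28 windows (53.6%), in 9.76% of the windows of all 27025 genes and in 8.47% of the windows of the 9391 tested genes that have one. The 15 members were Isg15, Oas1a, Ifit3, Ifitm3, Ifit1, Ifitm2, Bst2, Stat2, Ddx58, Ifih1, Trim25, Oas3, Rsad2, Eif2ak2 and Ifi44. The letters TTCNNNGAA of the gamma-activated site, which read the same on both strands, were found in 7 of the 28 windows (25.0%), namely those of Irf1, Ifit2, Oas1a, Eif2ak2, Bst2, Ifitm3 and Ifi35, and in 9.55% of all windows. The match in Ifitm3 overlaps one of its copies of GAAANNGAA. These matches describe letters in a window and say nothing of the binding of a factor.

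Some properties of the libraries bear on every value. The heart markers were present in all 6 libraries, with Myh6 between 678 and 1491 FPKM and Tnnt2 between 456 and 639.5 FPKM. Transcripts of the mitochondrial genome took 41.3%, 40.1% and 48.9% of the summed FPKM in the Ang II libraries and 51.3%, 49.6% and 52.5% in the Ang II + Tec libraries. The summed FPKM of 4 atrial markers was 637 and 797 in Ang II replicates 1 and 2 and 1568 in Ang II + Tec replicate 2 but under 3 in the other 3 libraries. Ang II replicate 3 stood apart from the other Ang II hearts, since it lay below both of them in 71.9% of the 13089 tested genes and nearer to the Ang II + Tec mean than to theirs in 74.9%. Fold changes of the named genes are therefore given with and without it. That heart was singled out from these same values, for lying near the Ang II + Tec hearts. Leaving it out thus tends to widen the difference and to narrow the spread. An adjusted p without it is a description only. Tested genes are those with at least 0.5 FPKM in at least 3 libraries, and the test was limma on log2(FPKM + 1) with Benjamini-Hochberg adjustment over all of them. A fold change on this scale understates the change of genes near 1 FPKM. The number of fragments behind each value is unknown, so the error given is the spread between the mice of a group.

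Most of the interferon-stimulated genes had lower levels in the Ang II + Tec hearts than in the Ang II hearts. By log2 fold change on log2(FPKM + 1), Isg15, Oas1a, Irf7, Ifit3 and Ifitm3 were at the low end. The nucleic acid sensor Zbp1, the tetherin gene Bst2 and the Oas family were among the other lower genes. This order depends on the pseudocount of 1. With a pseudocount of 0.1, Zbp1 was at -1.44 and Ifitm3 at -0.85. No member passed the adjusted threshold over all tested genes, and 1 Ang II heart, replicate 3, lay close to the Ang II + Tec hearts for most of them. Of the 37 members, 34 were tested, while Mx1, Ifi44 and Oas3 were under the limit. The adjusted p of limma was under 0.05 for 0 of the 34, with 0.185 for Oas1a as the lowest, and for 0.183% of all tested genes. The unadjusted p of limma was under 0.05 with a lower level for 18 of the 34, where 16.5% of all tested genes did so. In 18 of the 34 every Ang II + Tec heart was below every Ang II heart, beside 18.9% of all tested genes. An exact permutation test of 3 against 3 can give no two-sided p below 0.1. Zbp1 is in both counts of 18, although it reached the limit for testing only in the Ang II hearts, which already favoured a lower level. The level was lower in the Ang II + Tec group for 33 of the 34, with Trim25 as the exception, but 80.0% of all tested genes were lower as well. The median log2 fold change was -0.43 over the members and -0.17 over all tested genes. In bulk tissue, fewer cells of a type and less RNA per cell cannot be told apart.

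The general shift toward lower values depended on the scaling. When each library was divided by its median of ratios, the median of all tested genes moved from -0.17 to 0.0020 and the share of lower genes from 80.0% to 49.6%. The members then had a median of -0.24, with 28 of 34 lower, and the 5 that turned to slightly higher values were Irf1, Rsad2, Ifitm1, Parp14 and Dtx3l. Under this scaling 16 members were lower with an unadjusted p under 0.05, beside 8.20% of all tested genes, and 14 had no overlap, beside 10.8%. Isg15, Ifit3, Bst2, Cmpk2, Parp9 and Parp14 lost their separation under it, while Lgals3bp and Ddx58 gained it. In the paragraphs on single genes, overlap refers to the FPKM without this scaling. Quantile normalization gave a median of -0.23 and turned the same 5 genes.

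**Figure D1:**
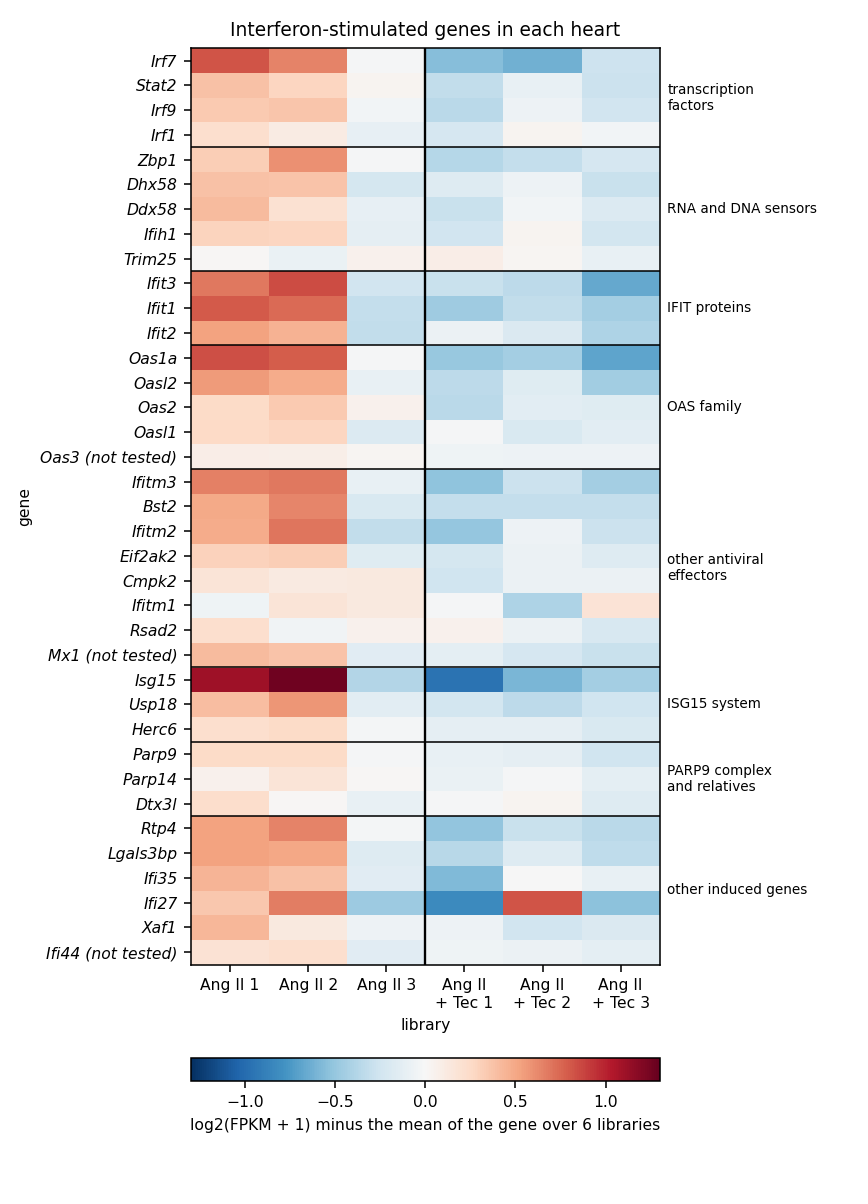
Heat map of the 37 members (rows, grouped by role) in the 6 libraries (columns), with colour for log2(FPKM + 1) minus the mean of the gene over the 6 libraries. Ang II replicates 1 and 2 are red for nearly every gene, Ang II replicate 3 is pale, and the Ang II + Tec hearts are mostly blue, with Ifi27 in Ang II + Tec replicate 2 as the strongest exception.

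**Figure D2:**
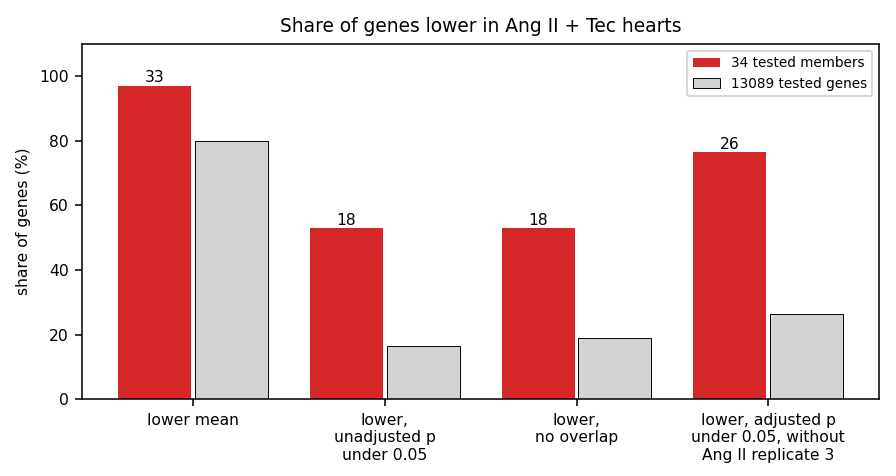
Bars show the share in percent of the 34 tested members (red, with the number of members above) and of all 13089 tested genes (grey) that met each of 4 criteria for a lower level in Ang II + Tec hearts. The members' share is above the share of all tested genes in each criterion, by the smallest margin for the lower mean. The rightmost criterion, an adjusted p of limma under 0.05, leaves out Ang II replicate 3. That heart was singled out from these same values, so this criterion gives no independent support.

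Of the 4 transcription factors among the members, 3 were lower without overlap between the groups, as were 18.9% of all tested genes. Irf7, which amplifies the production and the action of interferon, was at 9.59, 8.41 and 4.96 FPKM in hearts under Ang II alone and 3.11, 2.92 and 4.01 FPKM in hearts also given Tec. The 2 highest values were those of Ang II replicates 1 and 2, and the groups did not overlap. Its mean was 7.65 ± 2.41 FPKM against 3.35 ± 0.582 FPKM (SD, n = 3 each), and the log2 fold change was -0.96 (SE 0.23, adjusted p = 0.197), or -1.21 (adjusted p = 0.00315) without Ang II replicate 3. Stat2, a subunit of ISGF3 that carries its activation domain, was at 3.85, 3.53 and 2.80 FPKM in hearts under Ang II alone and 1.97, 2.48 and 2.07 FPKM in hearts also given Tec, again without overlap. Its log2 fold change was -0.47 (SE 0.14, adjusted p = 0.218), and without Ang II replicate 3 it was -0.57 (adjusted p = 0.0174). Irf9, the DNA-binding subunit of ISGF3, was at 4.97, 5.02 and 3.58 FPKM in hearts under Ang II alone and 2.69, 3.49 and 2.95 FPKM in hearts also given Tec. These values did not overlap, although Ang II replicate 3 was only just above Ang II + Tec replicate 2, and the log2 fold change was -0.44 (SE 0.15, adjusted p = 0.229), or -0.57 (adjusted p = 0.0177) without Ang II replicate 3. Irf1, a factor that interferon gamma also induces, was at 5.22, 4.76 and 3.95 FPKM in hearts under Ang II alone and 3.59, 4.47 and 4.23 FPKM in hearts also given Tec. The groups overlapped, the log2 fold change was -0.14 (SE 0.13, adjusted p = 0.529), or -0.24 (adjusted p = 0.185) without Ang II replicate 3, and its sign turned under both scalings named above (0.048 and 0.061).

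Isg15 and the genes whose products attach and remove its protein were lower without overlap between the groups in 3 of 3 cases, beside 18.9% of all tested genes. Under median of ratios scaling the groups of Isg15 itself overlapped. Isg15, a ubiquitin-like modifier that is joined to many proteins during the response, had the lowest log2 fold change of all members. It was at 9.08, 10.3 and 2.61 FPKM in hearts under Ang II alone and 1.42, 2.11 and 2.46 FPKM in hearts also given Tec. Ang II replicates 1 and 2 were far above the rest, whereas Ang II replicate 3 was only just above Ang II + Tec replicate 3. The mean was 7.32 ± 4.13 FPKM against 2.00 ± 0.529 FPKM (SD, n = 3 each), the log2 fold change was -1.33 (SE 0.42, adjusted p = 0.222), and without Ang II replicate 3 it was -1.85 (adjusted p = 0.00158). Usp18, the protease that removes ISG15 and dampens signalling at the receptor, was at 2.37, 2.78 and 1.32 FPKM in hearts under Ang II alone and 1.15, 1.01 and 1.13 FPKM in hearts also given Tec. The lowest Ang II heart was again replicate 3 and lay above all treated hearts. The log2 fold change of Usp18 was -0.56 (SE 0.19, adjusted p = 0.229), or -0.77 (adjusted p = 0.00650) without that heart. Herc6, the main ligase for ISG15 in mice, was low at 0.93, 0.98 and 0.64 FPKM in hearts under Ang II alone and 0.53, 0.53 and 0.45 FPKM in hearts also given Tec. Its groups did not overlap, with a log2 fold change of -0.29 (SE 0.11, adjusted p = 0.240), or -0.38 (adjusted p = 0.0322) without Ang II replicate 3.

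The IFIT proteins bind viral RNA and block its translation. Ifit3, which stabilises the complex of IFIT proteins, was at 15.7, 17.8 and 7.78 FPKM in hearts under Ang II alone and 7.52, 7.24 and 5.58 FPKM in hearts also given Tec. Ang II replicate 3 was closer to the Ang II + Tec hearts than to the other Ang II hearts, yet the groups did not overlap. The mean was 13.8 ± 5.27 FPKM against 6.78 ± 1.05 FPKM (SD, n = 3 each), the log2 fold change was -0.86 (SE 0.28, adjusted p = 0.229), and without Ang II replicate 3 it was -1.20 (adjusted p = 0.00330). Ifit1, which recognises RNA without a host cap, was at 5.90, 5.60 and 2.19 FPKM in hearts under Ang II alone and 1.88, 2.17 and 1.92 FPKM in hearts also given Tec. The lowest Ang II value and the highest Ang II + Tec value were almost the same, without overlap. The log2 fold change of Ifit1 was -0.82 (SE 0.29, adjusted p = 0.232), or -1.18 (adjusted p = 0.00192) without Ang II replicate 3. Ifit2 overlapped between the groups, with means of 5.58 ± 1.90 FPKM against 3.73 ± 0.531 FPKM (SD, n = 3 each) and a log2 fold change of -0.44 (SE 0.23, adjusted p = 0.327), or -0.70 (adjusted p = 0.0111) without Ang II replicate 3. Over the 3 Ifit members the median log2 fold change was -0.82, the lowest of the 8 roles.

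The oligoadenylate synthetases make a messenger that activates the RNA-degrading enzyme RNase L. Oas1a was at 4.59, 4.41 and 2.10 FPKM in hearts under Ang II alone and 1.23, 1.31 and 0.94 FPKM in hearts also given Tec. Every Ang II value was above every Ang II + Tec value, although Ang II replicate 3 lay nearer to the treated hearts than to the other Ang II hearts. With a mean of 3.70 ± 1.39 FPKM against 1.16 ± 0.195 FPKM (SD, n = 3 each), its log2 fold change was the lowest after that of Isg15, -1.08 (SE 0.23, adjusted p = 0.185), or -1.35 (adjusted p = 0.00164) without Ang II replicate 3. Oasl2, a relative with ubiquitin-like domains, was at 2.98, 2.80 and 1.53 FPKM in hearts under Ang II alone and 1.15, 1.44 and 0.99 FPKM in hearts also given Tec. The groups did not overlap, and Ang II replicate 3 was near the highest Ang II + Tec heart. Its log2 fold change was -0.62 (SE 0.19, adjusted p = 0.221), or -0.83 (adjusted p = 0.00700) without Ang II replicate 3. Oas2 was at 2.26, 2.49 and 1.87 FPKM in hearts under Ang II alone and 1.16, 1.50 and 1.47 FPKM in hearts also given Tec. All 3 Ang II hearts were higher than the treated hearts, and the log2 fold change was -0.43 (SE 0.12, adjusted p = 0.218), or -0.51 (adjusted p = 0.0230) without Ang II replicate 3. Oas3 had the lowest mean of all 37 members and was not tested, with 0.15, 0.14 and 0.10 FPKM in hearts under Ang II alone and 0.04, 0.03 and 0.03 FPKM in hearts also given Tec. It showed the same order of the groups, without overlap, at levels where 2 decimals of FPKM leave few steps. Oasl1, which restrains the translation of Irf7, had overlapping groups with means of 0.737 ± 0.292 FPKM against 0.463 ± 0.0971 FPKM (SD, n = 3 each) and a log2 fold change of -0.23 (SE 0.15, adjusted p = 0.380), or -0.38 (adjusted p = 0.0379) without Ang II replicate 3.

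**Figure D3:**
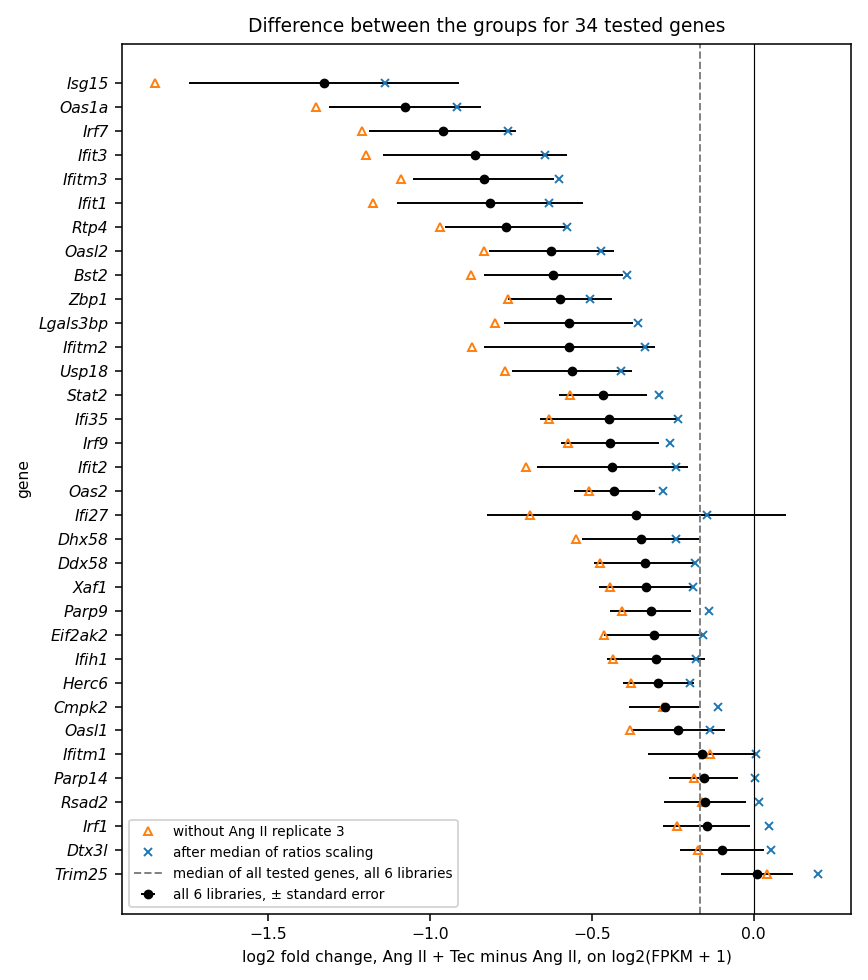
Log2 fold change of the 34 tested members (Ang II + Tec minus Ang II, on log2(FPKM + 1)), as black points with the standard error of limma, beside the value without Ang II replicate 3 (triangles) and after median of ratios scaling (crosses). The values run from -1.33 for Isg15 to 0.011 for Trim25, and the dashed line at -0.17 is the median of all tested genes.

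Of the antiviral effectors that act at membranes, 3 were the most abundant of all members. Ifitm3, which keeps viruses from fusing with the endosome, was at 99.8, 102 and 59.1 FPKM in hearts under Ang II alone and 43.5, 51.7 and 46.3 FPKM in hearts also given Tec. Ang II replicates 1 and 2 stood at about the same high level, Ang II replicate 3 lay between them and the treated hearts, and the groups did not overlap. The mean was 87.1 ± 24.3 FPKM against 47.1 ± 4.17 FPKM (SD, n = 3 each), the log2 fold change was -0.83 (SE 0.22, adjusted p = 0.201), and without Ang II replicate 3 it was -1.09 (adjusted p = 0.00203). Ifitm2, its close relative, was at 84.2, 97.8 and 48.0 FPKM in hearts under Ang II alone and 42.0, 57.2 and 49.4 FPKM in hearts also given Tec. Here Ang II replicate 3 fell among the treated hearts, so the groups overlapped. The log2 fold change was -0.57 (SE 0.26, adjusted p = 0.290), or -0.87 (adjusted p = 0.00877) without that heart. Bst2, or tetherin, which holds budding virus at the cell surface, was at 32.3, 35.6 and 19.5 FPKM in hearts under Ang II alone and 18.1, 18.0 and 18.0 FPKM in hearts also given Tec. The 3 treated hearts were nearly identical, and Ang II replicate 3 was just above them. Its mean was 29.1 ± 8.48 FPKM against 18.0 ± 0.0513 FPKM (SD, n = 3 each), with a log2 fold change of -0.62 (SE 0.21, adjusted p = 0.230), or -0.87 (adjusted p = 0.00272) without Ang II replicate 3. Ifitm1 was far less abundant than the other Ifitm genes, with overlapping groups (2.39 ± 0.274 FPKM against 2.07 ± 0.611 FPKM (SD, n = 3 each)) and a log2 fold change of -0.16 (SE 0.17, adjusted p = 0.580), or -0.14 (adjusted p = 0.598) without Ang II replicate 3. Its sign turned under both scalings and, to 0.0042, without Ang II + Tec replicate 2.

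The remaining effectors act inside the cell. Cmpk2, a mitochondrial nucleotide kinase, was at 2.88, 2.76 and 2.77 FPKM in hearts under Ang II alone and 1.88, 2.28 and 2.29 FPKM in hearts also given Tec, and in this gene Ang II replicate 3 was level with the other Ang II hearts. The groups did not overlap, and the log2 fold change was -0.27 (SE 0.11, adjusted p = 0.256), or -0.28 (adjusted p = 0.114) without Ang II replicate 3. Its genomic neighbour Rsad2, which encodes viperin, a maker of a chain-terminating nucleotide, had overlapping groups (2.67 ± 0.339 FPKM against 2.31 ± 0.305 FPKM (SD, n = 3 each)) and a log2 fold change of -0.15 (SE 0.13, adjusted p = 0.492), or -0.16 (adjusted p = 0.401) without Ang II replicate 3, with the sign turned under both scalings. Eif2ak2, the kinase PKR that halts translation on double-stranded RNA, had a log2 fold change of -0.31 (SE 0.15, adjusted p = 0.307) with overlapping groups, or -0.46 (adjusted p = 0.0237) without Ang II replicate 3. Mx1, a dynamin-like GTPase, was not tested. Its 6 values were 0.81, 0.76 and 0.23 FPKM in hearts under Ang II alone and 0.25, 0.17 and 0.11 FPKM in hearts also given Tec, and the groups overlapped because Ang II replicate 3 was below Ang II + Tec replicate 1. Of the 7 tested effectors, those at membranes included, 7 had a lower level, beside 80.0% of all tested genes. For 3 of them, Ifitm3, Bst2 and Cmpk2, the unadjusted p of limma was under 0.05, beside 16.5%. Under median of ratios scaling 5 of the 7 were lower, beside 49.6%.

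Among the sensors, Zbp1, which recognises Z-form nucleic acid and can start necroptosis, was at 0.95, 1.36 and 0.54 FPKM in hearts under Ang II alone and 0.21, 0.26 and 0.34 FPKM in hearts also given Tec. Its groups did not overlap, and the highest treated heart was at 0.34 FPKM. Zbp1 reached the limit for testing only in the Ang II hearts. Being tested thus already favoured a lower level with Tec, and its separation is a description only. The mean was 0.950 ± 0.410 FPKM against 0.270 ± 0.0656 FPKM (SD, n = 3 each), the log2 fold change was -0.60 (SE 0.16, adjusted p = 0.201), and without Ang II replicate 3 it was -0.76 (adjusted p = 0.00810). The 3 RIG-I-like receptors had overlapping groups, each with Ang II replicates 1 and 2 at the top and Ang II replicate 3 among the treated hearts. The log2 fold change was -0.34 (SE 0.16, adjusted p = 0.294) for Ddx58 (RIG-I), -0.30 (SE 0.15, adjusted p = 0.312) for Ifih1 (MDA5) and -0.35 (SE 0.18, adjusted p = 0.320) for Dhx58 (LGP2). Without Ang II replicate 3 these became -0.47 (adjusted p = 0.0357), -0.44 (adjusted p = 0.0423) and -0.55 (adjusted p = 0.0152). Trim25, the ubiquitin ligase that helps RIG-I to signal, was at 4.20, 3.82 and 4.32 FPKM in hearts under Ang II alone and 4.43, 4.22 and 3.81 FPKM in hearts also given Tec. All 6 values lay close together, and the log2 fold change was 0.011 (SE 0.11, adjusted p = 0.957), or 0.040 (adjusted p = 0.811) without Ang II replicate 3. It was the highest of the tested members. Relative to all tested genes, whose median was -0.17, Trim25 stood above the middle, and under median of ratios scaling its log2 fold change was 0.20.

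The poly(ADP-ribose) polymerase Parp9 and its partner Dtx3l form a complex that modifies histones and supports interferon signalling. Parp9 was at 3.93, 3.91 and 3.09 FPKM in hearts under Ang II alone and 2.87, 2.81 and 2.47 FPKM in hearts also given Tec. The groups did not overlap, with a log2 fold change of -0.32 (SE 0.12, adjusted p = 0.250), or -0.41 (adjusted p = 0.0357) without Ang II replicate 3. Dtx3l was at 2.30, 1.85 and 1.63 FPKM in hearts under Ang II alone and 1.79, 1.89 and 1.50 FPKM in hearts also given Tec. The groups overlapped, the log2 fold change was -0.098 (SE 0.13, adjusted p = 0.652), or -0.17 (adjusted p = 0.332) without Ang II replicate 3, and its sign turned under both scalings (0.055 and 0.079). The annotated spans of Dtx3l and Parp9 overlap by 682 bases on opposite strands, and whether the counting used strand is not given in the sources used here, so reads of the shared stretch could have gone to either gene. Parp14, a relative of Parp9, was at 2.17, 2.42 and 2.08 FPKM in hearts under Ang II alone and 1.87, 2.03 and 1.79 FPKM in hearts also given Tec. All treated hearts were below all Ang II hearts by a small margin, and the log2 fold change was -0.15 (SE 0.11, adjusted p = 0.418), or -0.19 (adjusted p = 0.245) without Ang II replicate 3, turning to 0.0047 under median of ratios scaling and 0.027 under quantile normalization.

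The other induced genes have looser ties to defence. Rtp4, a chaperone of taste and opioid receptors that interferon induces strongly, was at 5.56, 6.13 and 3.47 FPKM in hearts under Ang II alone and 2.20, 2.73 and 2.58 FPKM in hearts also given Tec. The groups did not overlap. The mean was 5.05 ± 1.40 FPKM against 2.50 ± 0.273 FPKM (SD, n = 3 each), the log2 fold change was -0.76 (SE 0.19, adjusted p = 0.201), and without Ang II replicate 3 it was -0.97 (adjusted p = 0.00397). Ifi27, a protein of inner membranes of the nucleus and mitochondria, was the fourth most abundant member and had another pattern, with 19.2, 24.1 and 10.4 FPKM in hearts under Ang II alone and 7.90, 26.8 and 9.94 FPKM in hearts also given Tec. Its 3 highest values were those of Ang II + Tec replicate 2 and Ang II replicates 1 and 2, which are the 3 libraries with high atrial markers. The part of atrial tissue in this pattern was not tested. The groups overlapped, and the log2 fold change was -0.36 (SE 0.46, adjusted p = 0.643), or -0.69 (adjusted p = 0.256) without Ang II replicate 3, and it was -0.86 without Ang II + Tec replicate 2. Lgals3bp, a secreted glycoprotein that binds galectins, had means of 10.7 ± 2.91 FPKM against 6.72 ± 0.559 FPKM (SD, n = 3 each) and a log2 fold change of -0.57 (SE 0.20, adjusted p = 0.231), or -0.80 (adjusted p = 0.00516) without Ang II replicate 3. Its groups met at a tie of 7.36 FPKM between Ang II replicate 3 and Ang II + Tec replicate 2. Ifi35, a leucine zipper protein, and Xaf1, which favours apoptosis, overlapped between the groups with log2 fold changes of -0.45 (SE 0.21, adjusted p = 0.298) and -0.33 (SE 0.15, adjusted p = 0.279), or -0.63 (adjusted p = 0.0361) and -0.44 (adjusted p = 0.0455) without Ang II replicate 3. Ifi44 was not tested, with 0.66, 0.70 and 0.32 FPKM in hearts under Ang II alone and 0.40, 0.38 and 0.34 FPKM in hearts also given Tec. Its Ang II replicate 3 was below all treated hearts.

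The highest values of the members came almost wholly from Ang II replicates 1 and 2, and the lowest from the Ang II + Tec hearts. Of the 34 tested members, 17 had their highest value in Ang II replicate 1 and 14 in Ang II replicate 2, beside 24.1% and 44.3% of all tested genes. Ang II replicate 3 was highest for 0 members, beside 7.43% of all tested genes. Each Ang II + Tec heart was highest for 1, beside 3.64%, 17.9% and 2.70% for replicates 1, 2 and 3. The lowest value was in Ang II + Tec replicate 1 for 17 members, in replicate 3 for 12 and in replicate 2 for 5, beside 37.6%, 25.3% and 9.15% of all tested genes. The mean log2(FPKM + 1) of the 34 was 2.62, 2.62 and 2.10 in the Ang II hearts and 1.91, 2.06 and 1.94 in the Ang II + Tec hearts. Over all tested genes the same mean was 2.64, 2.68 and 2.40, and then 2.32, 2.50 and 2.34. The members thus stood 0.022 and 0.059 below the mean of all tested genes in Ang II replicates 1 and 2, 0.30 below it in Ang II replicate 3, and 0.41, 0.45 and 0.39 below it in the Ang II + Tec hearts. Ang II replicate 3 was below both other Ang II hearts in 30 of the 34 members (88.2%, beside 71.9% of all tested genes) and nearer to the Ang II + Tec mean in 30 (88.2%, beside 74.9%).

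Leaving out 1 heart at a time changed the counts. Without Ang II replicate 3, the adjusted p of limma was under 0.05 with a lower level for 26 of the 34 members, where 26.2% of all tested genes were called lower in the same fit. The unadjusted count was then 27, beside 39.3% of all tested genes, the number without overlap was 29, beside 53.7%, and the median log2 fold change was -0.57. When any other heart was left out, 0 members passed the adjusted threshold. For Isg15 the adjusted p of limma was then between 0.274 and 0.650. Ang II replicate 3 was singled out from these same values, so the fit without it gives no independent support. The unadjusted count fell to 7 when Ang II replicate 1 was left out and to 9 for Ang II replicate 2, beside 6.29% and 7.64% of all tested genes. For replicates 1, 2 and 3 of Ang II + Tec it was 11, 16 and 10, beside 7.68%, 16.4% and 7.60%. No label gives a reason to leave out Ang II replicate 3.

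The members varied together over the 6 libraries. Among the 561 pairs of tested members, the median Pearson correlation of log2(FPKM + 1) was 0.868, with a range of -0.519 to 0.995, and 524 pairs were positive. The 6 points share the difference between the groups, the place of Ang II replicate 3 and the scaling of each library, so these values are a description only. Trim25 had the lowest median correlation with the other members, -0.30, followed by Ifitm1 with 0.11.

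**Figure D4:**
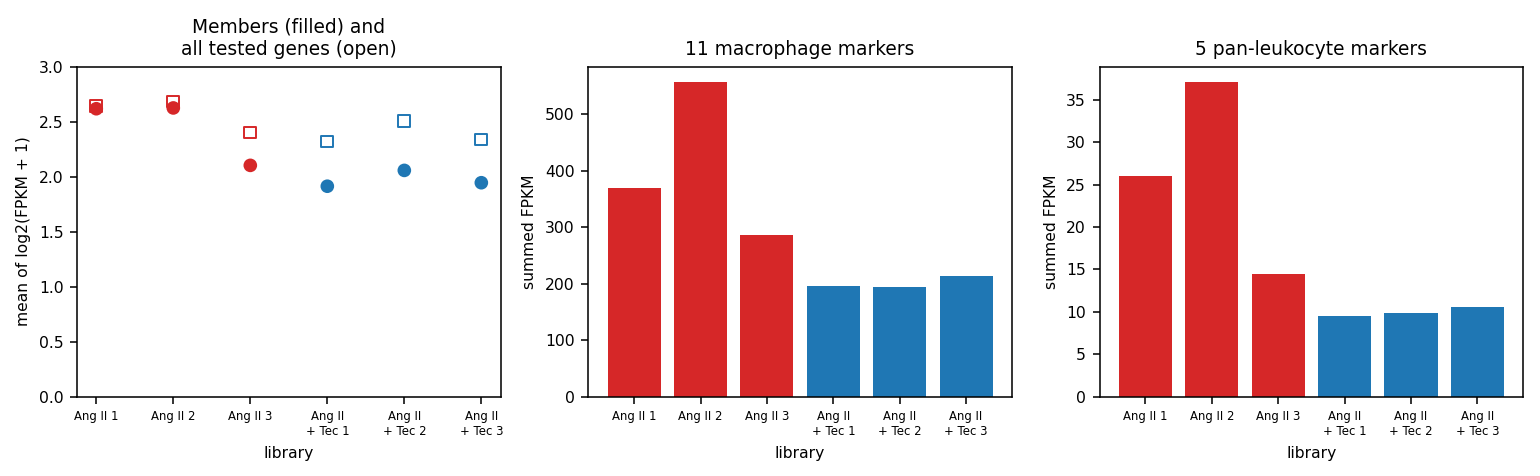
The left panel shows, for each library, the mean log2(FPKM + 1) of the 34 tested members (filled circles) and of all tested genes (open squares), and the other panels show as bars the summed FPKM of 11 macrophage and 5 pan-leukocyte markers (Ang II red, Ang II + Tec blue). Ang II replicates 1 and 2 are highest in all panels, and the members lie further below all tested genes in the other 4 libraries.

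Upstream of these genes, the few interferon transcripts that have values were barely seen. Of 20 interferon genes listed, 4 were found by name among the genes of the deposited table, and none of these reached 0.5 FPKM. The others have no value, which is not a measured level of 0. Ifnb1 was listed at 0 in 5 libraries and at 0.03 FPKM in Ang II + Tec replicate 2, and the highest value of the 4, for Ifna4 in Ang II replicate 2, was 0.10 FPKM. Of 20 genes of the receptors and their signalling, 19 were tested and had a median log2 fold change of -0.25. Of these, 18 were lower and 3 had an unadjusted p under 0.05, beside 80.0% and 16.5% of all tested genes, and 12 were lower under median of ratios scaling, beside 49.6%. The unadjusted count was thus at the share of all tested genes. The receptor chains Ifnar1 and Ifnar2 overlapped between the groups, with log2 fold changes of -0.42 (SE 0.20, adjusted p = 0.296) and -0.31 (SE 0.15, adjusted p = 0.293), or -0.63 (adjusted p = 0.0158) and -0.45 (adjusted p = 0.0238) without Ang II replicate 3. The 3 with an unadjusted p under 0.05 were Ifngr2, Irf5 and Irf3, at -0.45, -0.46 and -0.39, or -0.48, -0.64 and -0.49 without Ang II replicate 3.

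For genes that work with the members' proteins, the unadjusted calls were not above the share of all tested genes (16.5%), of which 80.0% were lower, or 49.6% under median of ratios scaling. The 8 tested of 9 adaptors of the RIG-I-like receptors had a median log2 fold change of -0.21, with 8 lower (5 under median of ratios scaling) and 1, the RIG-I ligase Rnf135, at an unadjusted p under 0.05 with -0.43 (SE 0.15, adjusted p = 0.232), or -0.54 (adjusted p = 0.0293) without Ang II replicate 3. The 7 partners of ISG15 and of the oligoadenylate pathway had a median of -0.14, with 6 lower (3 under median of ratios scaling) and 1 at an unadjusted p under 0.05. That gene was Ube2l6, the conjugating enzyme for ISG15, with 8.78, 10.2 and 4.96 FPKM in hearts under Ang II alone and 4.04, 4.68 and 4.33 FPKM in hearts also given Tec. Its groups did not overlap, and the log2 fold change was -0.70 (SE 0.23, adjusted p = 0.228), or -0.97 (adjusted p = 0.00357) without Ang II replicate 3. None of these values was tested against the members' values.

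A further list held 51 interferon-stimulated genes outside the 37. Of 39 tested, 37 were lower (29 under median of ratios scaling), 19 had an unadjusted p under 0.05 with a lower level, 17 had no overlap in that direction, and 0 had an adjusted p under 0.05. The shares of all tested genes were 80.0% (49.6% under median of ratios scaling), 16.5%, 18.9% and 0.183%. In the higher direction 1 gene of the list had no overlap, as had 380 of all 13089 tested genes. The median log2 fold change was -0.36, or -0.19 under median of ratios scaling. Ifi27l2a, a relative of Ifi27, was at 97.9, 139 and 47.4 FPKM in hearts under Ang II alone and 20.9, 34.4 and 18.7 FPKM in hearts also given Tec. It was the most abundant of the genes named from this list, its groups did not overlap, and its log2 fold change of -1.82 (SE 0.40, adjusted p = 0.185) was below that of any member. Without Ang II replicate 3 it was -2.25 (adjusted p = 0.00305). Ly6e, a membrane protein that restricts coronaviruses, was at 43.0, 44.1 and 33.3 FPKM in hearts under Ang II alone and 26.6, 26.6 and 24.7 FPKM in hearts also given Tec, with a log2 fold change of -0.60 (SE 0.14, adjusted p = 0.187), or -0.72 (adjusted p = 0.00477) without Ang II replicate 3. Slfn2 and Slfn9, of the Schlafen family, had log2 fold changes of -1.02 (SE 0.23, adjusted p = 0.187) and -0.47 (SE 0.11, adjusted p = 0.201), or -1.28 (adjusted p = 0.00257) and -0.55 (adjusted p = 0.0134) without that heart. Some genes of this list, Slfn9 among them, reached the limit for testing only in the Ang II hearts. For these, being tested already favoured a lower level with Tec.

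Macrophage and pan-leukocyte markers were lower beside the members. The 11 macrophage markers summed to 369, 557 and 287 FPKM in the Ang II hearts and 196, 195 and 214 FPKM in the Ang II + Tec hearts. All 11 were lower (10 under median of ratios scaling), 10 with an unadjusted p under 0.05, beside 80.0% (49.6%) and 16.5% of all tested genes, and the median log2 fold change was -0.84. Of the defining markers, C1qa, a complement subunit of macrophages, was at 67.9, 82.5 and 47.4 FPKM in hearts under Ang II alone and 26.3, 28.1 and 32.3 FPKM in hearts also given Tec, with a log2 fold change of -1.13 (SE 0.20, adjusted p = 0.154), or -1.35 (adjusted p = 0.00197) without Ang II replicate 3. Csf1r had a log2 fold change of -0.51 (SE 0.19, adjusted p = 0.242) and Adgre1, with overlapping groups, one of -0.86 (SE 0.34, adjusted p = 0.249), or -0.71 (adjusted p = 0.00903) and -1.25 (adjusted p = 0.00747) without that heart. The 5 pan-leukocyte markers summed to 25.95, 37.05 and 14.5 FPKM and then 9.49, 9.85 and 10.6 FPKM, and Ptprc itself was under 1 FPKM in every library. The 7 fibroblast markers summed to 770.0, 1017 and 169 FPKM and then 139, 229 and 154 FPKM, with 7 lower and 5 at an unadjusted p under 0.05, beside the same shares of all tested genes. Markers of T and NK cells, B cells and plasmacytoid dendritic cells summed to under 1 FPKM in every library, and Siglech, the defining marker of the last, was at most 0.12 FPKM. The 7 endothelial markers summed to between 75.1 and 91.4 FPKM in all 6 libraries, and the 8 cardiomyocyte markers to between 9201 and 11449 FPKM. Those of smooth muscle and pericytes summed to between 168 and 417 FPKM, those of erythroid cells to between 118 and 839 FPKM and those of neutrophils to between 0.33 and 3.14 FPKM, with the highest sum of each in Ang II replicate 2. S100a9, the 1 neutrophil marker tested, had a log2 fold change of 0.22 (SE 0.44, adjusted p = 0.781), or 0.047 (adjusted p = 0.948) without Ang II replicate 3. The part of these cell types in the members' values was not tested.

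For some members reads may be shared with another gene. Transcripts of Oas1a and Oas1g agree over 1861 bases at 97.6% identity, those of Ifit3 and Ifit3b over 1700 bases at 97.8%, and those of Mx1 and Mx2 over 920 bases at 94.8%. Oas1g was at 1.40, 1.27 and 0.56 FPKM in hearts under Ang II alone and 0.35, 0.25 and 0.22 FPKM in hearts also given Tec. It had the direction of Oas1a, without overlap. Its log2 fold change was -0.68 (SE 0.17, adjusted p = 0.201), or -0.88 (adjusted p = 0.00357) without Ang II replicate 3. Oas1g reached the limit for testing only in the Ang II hearts, which already favoured a lower level with Tec. Ifit3b was at 4.35, 4.22 and 2.09 FPKM in hearts under Ang II alone and 3.13, 2.05 and 2.26 FPKM in hearts also given Tec, with overlapping groups and a log2 fold change of -0.36 (SE 0.24, adjusted p = 0.402), or -0.62 (adjusted p = 0.0253) without Ang II replicate 3, and how reads were divided between the pair is not given in the sources used here. Isg15, Ifitm1, Ifitm2 and Ifitm3 also have pseudogenes with stretches of at least 200 bases at 90% identity or more. The annotated spans of some members, introns included, overlap other gene models. On the same strand, Herc6 shares 45031 bases with Gm45193, Rtp4 39791 with Gm45338, Parp14 1773 with Gm49730, Ifitm2 1101 with Gm45717 and Irf9 123 with Rnf31. On the opposite strand, Usp18 shares 15715 bases with Gm44148, Parp9 5854 with Gm15564 and Dhx58 2637 with Dhx58os, and Oas2, Irf1, Ifi35, Eif2ak2, Rtp4, Herc6, Irf7 and Oasl1 share between 38 and 1273 bases with other models. How much of these stretches is exonic in both genes was not measured, and the values of these members are uncertain.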

How the data were processed

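Poly(A) RNA of the hearts of 3 Ang II and 3 Ang II + Tec mice was sequenced by the authors. Per the labels and methods, reads were trimmed with Cutadapt and checked with FastQC, and the submitters' processing notes name Bowtie 0.12.2, HISAT2 2.0 and StringTie 1.3.0 without roles. The deposited values are FPKM with 2 decimals for 30914 genes. The labels name build mm8, but the coordinates of 27947 of 30832 genes equal those of GENCODE M21 on GRCm38. The instrument is a NovaSeq in the labels and a HiSeq in the methods. Because FPKM hold no counts, tests for counts were left aside, and read totals and counting intervals are not known. Whether strand was used in counting is not given in the sources used here.

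Groups came from the treatment labels of the samples. From the FPKM, log2(FPKM + 1) was computed for the 13089 genes with at least 0.5 FPKM in at least 3 of 6 libraries and compared by lmFit and eBayes (variance trend on) of limma 3.58.1 under R 4.3.3, with Benjamini-Hochberg adjustment over all tested genes at 0.05 and no covariate. A log2 fold change is Ang II + Tec minus Ang II on this scale. The script was tested on simulated data. The design text names 3 mice a group, so p-values set the difference between the groups against the spread between the mice of a group.

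The 37 members and all other lists and markers were chosen with earlier results of these data known. By rule, 6 values with fold change, SE and adjusted p are given for members without overlap between groups, the 5 with the lowest and 3 with the highest log2 fold change and the 5 with the highest mean FPKM. From other lists at most 4 genes, those with the lowest unadjusted p, and Ifnar1, Ifnar2 and Ifnb1 are named (1 gene of the signalling list is not reported here and was left out of its counts), beside the defining markers of the cell types (Myh6, Tnnt2, Adgre1, Csf1r, C1qa, Ptprc, Siglech), while Oas1g, Ifit3b, Ifna4 and S100a9 were named after their values were seen. Promoters are from RefSeq (GRCm38.p6) and were searched on both strands. Near copies were sought with BLAST+ 2.17.0 (at least 90% identity over 200 bases). Alternatives were other pseudocounts (0.1, 0.5), filters (1 FPKM, none), 3 other scalings, the replicate number as a block, no variance trend, library weights by REML and, added after seeing the data, by the gene-by-gene method, and each heart left out in turn on the same genes.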

Additional observations from a re-analysis of the deposited data

How the results depend on the processing

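No member passed the adjusted threshold under the other pseudocounts, filters and scalings or without a variance trend. The number lower with an unadjusted p under 0.05 stayed between 15 and 20 in these fits (18 as reported). The share of all tested genes beside it ran from 7.85% to 17.2%, so like counts do not stand beside like shares. The median log2 fold change kept its sign in every alternative, from -0.61 to -0.23. The order of the members changed with the pseudocount. At 0.1, Zbp1 was at -1.44 and Ifitm3 at -0.85, beside -0.60 and -0.83 as reported. Library weights gave 22 members at an adjusted p under 0.05 by REML, which stopped before its tolerance was met, and 31 by the gene-by-gene method. By the latter 32 were lower at an unadjusted p under 0.05, beside 59.7% of all tested genes. The weights ranged from 0.118 to 9.96 by REML and from 0.191 to 4.46 by the gene-by-gene method, and 3542 and 7757 of all tested genes passed in these fits. The methods differed over Ang II replicate 1, which had the lowest weight by REML (0.118) and the highest by the gene-by-gene method (4.46). The lowest weight by the gene-by-gene method was that of Ang II replicate 3, the heart singled out from these same values. These counts are therefore descriptions only. With 1 heart left out, the adjusted count was 0 to 26, the unadjusted count 7 to 27, the count without overlap 18 to 29 and the median -0.57 to -0.31, the upper counts all without Ang II replicate 3. The shares of all tested genes ran from 6.29% to 39.3% for the unadjusted count and from 19.9% to 53.7% for no overlap. The sign turned under median of ratios and quantile normalization for Irf1 (0.048 and 0.061), Parp14 (0.0047 and 0.027), Dtx3l (0.055 and 0.079), Rsad2 (0.017 and 0.037) and Ifitm1 (0.0078 and 0.029), for Ifitm1 also by the gene-by-gene method (0.084) and without Ang II + Tec replicate 2 (0.0042), and for Trim25 under library weights (-0.0014 and -0.031) and without Ang II replicate 2 (-0.031) or Ang II + Tec replicate 1 (-0.028), and its values over the hearts left out ran from -0.031 to 0.060. The cause of these changes was not tested. Same-numbered hearts did not deviate together in each pair (correlations of -0.039, 0.43 and 0.38), so the numbers were not taken to pair the hearts. The replicate block gave 0 members at an adjusted p under 0.05, 21 at an unadjusted p under 0.05, beside 22.9% of all tested genes, 18 without overlap, beside 18.9%, and a median of -0.43. Ang II replicate 1 correlated best with Ang II + Tec replicate 2, the others with their own number. The number of 3 hearts a group limits the precision, and 2 decimals limit values near 0.1 FPKM.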
